A study of Mus musculus with 56 samples.

Results

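The heat shock proteins and DnaJ co-chaperones were followed in prefrontal cortex and nucleus accumbens of inbred mice. Members were the genes whose symbol on the array begins with Hspa, Hspb, Hspd, Hspe, Hsph, Hsp90, Dnaja, Dnajb or Dnajc, each represented by its brightest probe set annotated to 1 symbol. The rule gave 72 genes out of 18183 genes with such a probe set. It uses names alone, so it also takes in Hspbp1 and Hspbap1, partners of heat shock proteins, and Hspb11, which encodes a subunit of the intraflagellar transport complex. Of the 72, 53 exceeded log2 5 on 13 or more of the 54 arrays of paired strains and were tested. The other 19 were too dim: Hspa1a, Hspa1l, Hspa12b, Hspb2, Hspb3, Hspb6, Hspb7, Hspb8, Hspb9, Hspbap1, Dnajb3, Dnajb7, Dnajb8, Dnajb13, Dnajc5b, Dnajc5g, Dnajc22, Dnajc25 and Dnajc28.

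Prefrontal cortex was measured on 29 arrays and nucleus accumbens, the ventral striatum, on 27. Each array held RNA pooled from 3 male mice, 8 to 10 weeks old, of 1 inbred strain, and the design describes both regions dissected from each brain without saying that a strain's 2 pools held the same mice. The 27 strains with both regions were WSB/EiJ, C57BL/6J, A/J, SWR/J, DBA/2J, NOD/LtJ, AKR/J, SM/J, FVB/NJ, NON/LtJ, C3H/HeJ, PL/J, BALB/cByJ, KK/HlJ, CBA/J, RIIIS/J, BUB/BnJ, I/LnJ, C58/J, P/J, 129S1/SvImJ, MA/MyJ, CE/J, SJL/J, BTBR T+ tf/J, NZW/LacJ and C57BR/cdJ, and MRL/MpJ and NZO/HILtJ were measured in cortex only. Each strain was represented by 1 pool per region, so an effect of strain and an effect of its pool cannot be told apart. No p-value measures the spread between pools of the same strain and region. In the tests of region and of strain, the error is how far each strain's region difference departs from the mean difference. Unless stated otherwise, values below are log2 of the probe set intensity, given as a level or as a difference of levels, and p-values are adjusted by the Benjamini-Hochberg method over all features tested.

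Chaperones bind unfolded or partly folded proteins and let them fold, move across membranes, assemble or be degraded. HSP70 proteins do so in a cycle driven by ATP: DnaJ proteins deliver clients and trigger hydrolysis, nucleotide exchange factors such as the HSP110 proteins reset the cycle, and HSP90 takes over clients at a later stage. Heat shock factor 1 induces the cytosolic set on protein damage through heat shock elements, inverted repeats of GAA, while the unfolded protein response induces the set of the endoplasmic reticulum (ER) through ER stress elements. Neurons depend on constitutive members, among them auxilin and cysteine string protein, which serve clathrin uncoating and synaptic vesicle release.

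Windows upstream of some members whose levels varied between strains are printed to show response elements found in them. The lists of heat-inducible and ER members were not built from these elements. Windows without a match, such as those of Dnajb1 and Dnajb11, are not printed. Start sites and bases are those of RefSeq on the reference build GRCm38.p6, which represents C57BL/6J and none of the other strains, and each window holds the 250 bases before an annotated start, 5′ to 3′ on the gene's own strand. Capitals mark a heat shock element in Hspa1b (minus strand, chr17:34959239-34959488) and in Hsph1 (minus strand, chr5:149636337-149636586), and ER stress elements in Hspa5 (plus strand, chr2:34771840-34772089), Hsp90b1 (minus strand, chr10:86705445-86705694) and Dnajc3 (plus strand, chr14:118937682-118937931). For Hspe1 only the 30 bases around its overlapping heat shock elements are shown (plus strand, chr1:55088053-55088082), because annotated Hspd1 transcripts start on the other strand close by, at positions -216 and 95 relative to the Hspe1 start.
Hspa1b: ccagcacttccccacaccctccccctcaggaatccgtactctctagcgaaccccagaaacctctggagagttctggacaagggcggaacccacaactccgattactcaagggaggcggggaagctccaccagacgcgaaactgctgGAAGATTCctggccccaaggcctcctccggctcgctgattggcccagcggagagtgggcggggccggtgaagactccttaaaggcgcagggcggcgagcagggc
Hsph1: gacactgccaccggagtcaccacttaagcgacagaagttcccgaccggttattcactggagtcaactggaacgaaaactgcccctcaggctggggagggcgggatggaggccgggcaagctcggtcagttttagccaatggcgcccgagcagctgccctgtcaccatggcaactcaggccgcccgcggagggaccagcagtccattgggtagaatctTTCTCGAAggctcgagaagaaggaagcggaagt
Hspe1: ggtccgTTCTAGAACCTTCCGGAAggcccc
Hspa5: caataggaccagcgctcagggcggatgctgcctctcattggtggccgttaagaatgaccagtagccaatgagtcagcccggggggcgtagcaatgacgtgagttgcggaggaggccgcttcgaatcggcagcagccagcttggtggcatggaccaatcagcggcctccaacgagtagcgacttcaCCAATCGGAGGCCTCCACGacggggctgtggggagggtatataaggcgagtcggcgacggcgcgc
Hsp90b1: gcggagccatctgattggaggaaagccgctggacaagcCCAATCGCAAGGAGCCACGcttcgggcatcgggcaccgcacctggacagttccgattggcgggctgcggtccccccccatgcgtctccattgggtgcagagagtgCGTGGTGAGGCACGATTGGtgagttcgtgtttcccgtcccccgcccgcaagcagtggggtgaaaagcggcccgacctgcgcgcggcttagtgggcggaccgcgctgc
Dnajc3: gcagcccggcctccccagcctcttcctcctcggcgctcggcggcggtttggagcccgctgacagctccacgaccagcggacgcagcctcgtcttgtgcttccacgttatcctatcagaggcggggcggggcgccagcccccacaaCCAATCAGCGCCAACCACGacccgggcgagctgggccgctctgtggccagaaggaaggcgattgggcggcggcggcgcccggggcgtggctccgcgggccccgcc

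The heat shock element searched was GAANNTTC or TTCNNGAA, each of which reads the same on both strands. It was found in the upstream windows of 8 of the 10 heat-inducible members with an entry (Hspa1a, Hspa1b, Hsph1, Hspb1, Hspd1, Hspe1, Dnaja1 and Dnajb4), of 14 of 59 members in all and of 14.55% of all 27025 genes. The longer form of 3 alternating GAA and TTC units with 2 bases between neighbours, which contains the shorter one, was in the windows of Hspd1, Hspe1 and Dnajb6 and of 0.51% of all genes. The Hspe1 and Hspd1 windows overlap, so these are partly the same bases. The ER stress element, CCAAT followed after 9 bases by CCACG on either strand, was in the windows of Hspa5, Hsp90b1 and Dnajc3, which are 3 of the 8 ER members with an entry, and of 0.13% of all genes. The Hsp90b1 window holds 2 copies. The windows of Dnajb1 held neither heat shock form. These are matches of letters in 250 bases, not measurements of binding.

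On the linear scale, the median probe set of an array ranged from 9.94 to 10.43 in cortex and from 9.66 to 10.14 in accumbens. Of the marker lists, all 10 measured medium spiny neuron genes and all 7 oligodendrocyte genes were higher in accumbens, and all 7 cortical excitatory neuron genes and all 9 immediate early genes were lower (limma, adjusted p under 0.05). The summed spiny neuron list averaged 4.88 to 9.66 per gene in cortex and 7.49 to 10.76 in accumbens, MA/MyJ cortex and BALB/cByJ accumbens being the arrays nearest the other region. The accumbens arrays of CE/J, NON/LtJ and WSB/EiJ were low in these genes too. The 3′ to 5′ difference of actin, a sign of RNA quality, was 1.74 ± 0.27 in cortex and 1.92 ± 0.18 in accumbens (SD, n = 27). None of the blood markers was bright enough to be tested. These values move with every region difference below, and their part in it was not tested. In pieces of tissue, fewer cells of a type and less RNA per cell cannot be told apart.

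The first comparison was between the regions within strains. Of the 53 members tested, 25 were higher in accumbens and 19 lower, and 9 did not pass (limma moderated t with strain as a block, adjusted p under 0.05 over all 10684 features). Over all features, 51% were higher and 32.9% lower, so 83.9% were called in either direction. Differences of at least 2-fold were seen in 3 members, all lower (Dnajc21, Hspa1b and Dnajc6), against 8.29% of features higher and 7.09% lower by that much. The median difference was 0.03 over the members and 0.12 over all features. An array's 99th percentile ranged from 11.05 to 11.14 in cortex and from 11.17 to 11.31 in accumbens, without overlap. The submitters' processing notes do not say whether each region was normalized on its own. An effect of region and that of such a separate normalization cannot be told apart. After quantile normalization over all arrays 20 members were higher and 25 lower, with medians of -0.06 and 0.01. After centring each array the split was 20 and 23. No called member changed sign under either scaling, but after quantile normalization 5 members lost their call (Dnaja4, Dnajb2, Dnajb14, Hspa4l and Hspd1) and 6 others were newly called lower (Dnaja2, Dnajb12, Dnajc13, Dnajc16, Dnajc18 and Hsp90b1).

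**Figure D1:**
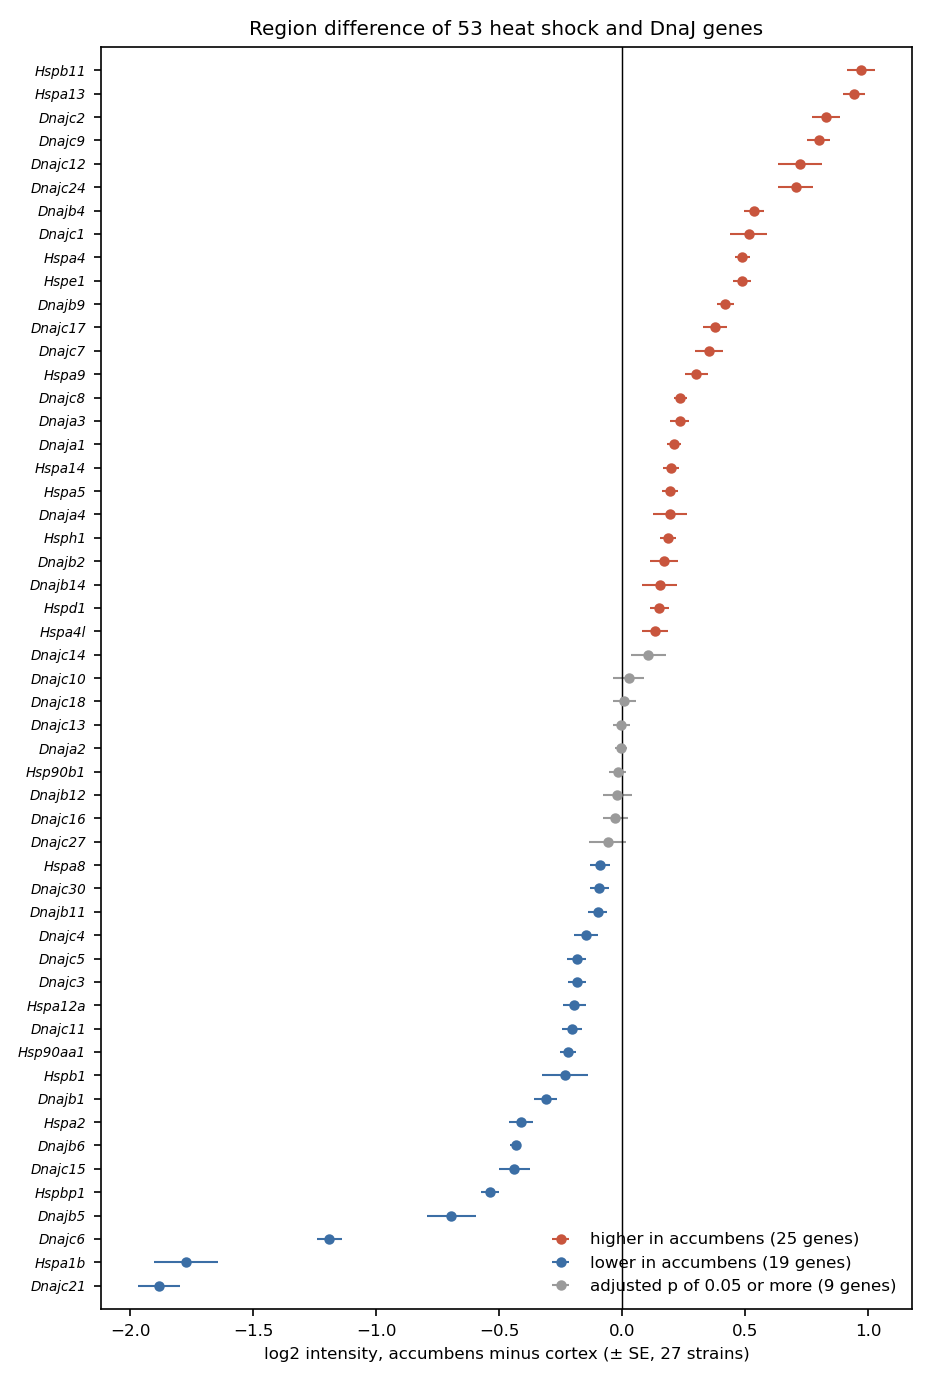
Region difference of the 53 tested members on the log2 scale, accumbens minus cortex, with the standard error of the fit over 27 strains. The differences run from -1.88 for Dnajc21 to 0.97 for Hspb11, and 3 members lie below -1 while none lies above 1.

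The inducible HSP70 gene Hspa1b, the classical marker of the heat shock response, was lower in accumbens in every strain. Its level lay between 6.19 and 9.11 in cortex with a median of 7.07, and between 3.74 and 8.88 in accumbens with a median of 5.01. The ranges overlapped, WSB/EiJ being the highest array in both, and 14 of the 27 accumbens arrays were above log2 5. The level fell by 1.77 (SE 0.13, adjusted p = 1.51e-13), a 3.42-fold lower level in accumbens. The accumbens mean of 5.52 includes arrays below log2 5, so the size of the fall has limited precision. All 3 Hspa1b probe sets were lower. The other 2 had accumbens means of 4.61 and 4.96, below log2 5, and were lower by at least 0.80 and 1.68. Hspa1a is a near-identical copy, and the brightest Hspa1b probe set is of a type that can detect related transcripts, so their signals cannot be told apart.

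Other cytosolic HSP70 proteins moved less and in both directions. Hspa4, an HSP110-type nucleotide exchange factor, lay between 9.05 and 9.53 in cortex (median 9.28) and between 9.54 and 10.03 in accumbens (median 9.77). The ranges did not overlap, and Hspa4 rose by 0.49 (SE 0.03, adjusted p = 1.64e-15) in 27 of 27 strains, although 1 of its 3 probe sets was lower. The related exchange factors Hsph1 and Hspa4l rose by 0.19 (adjusted p = 4.72e-06) and 0.14 (adjusted p = 0.0196), the latter 0.03 after quantile normalization (adjusted p = 0.568). Hspa2, an HSP70 best known from testis, fell by 0.41 (adjusted p = 5.79e-09), Hspbp1, which releases nucleotide from HSP70, by 0.54 (adjusted p = 1.48e-14) in 27 of 27 strains, and the atypical family member Hspa12a by 0.19 (adjusted p = 0.000266). Hspa14, which works with Dnajc2 at the ribosome, rose by 0.20 (adjusted p = 3.29e-06). The difference of Hspa8, the constitutive HSP70, was -0.09 (adjusted p = 0.0497), and it kept its call in 7 of 27 fits that left out 1 strain each.

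The heat-inducible members tested were Hspa1b, Hspa8, Hsph1, Hsp90aa1, Hspb1, Hspd1, Hspe1, Dnaja1, Dnajb1, Hspa4l and Dnajb4, so the list includes the constitutive Hspa8. Of these 11, 6 were higher and 5 lower, against 51% and 32.9% of all features, and the median difference was 0.14. After quantile normalization the split was 4 and 5, and the median was 0.03. Dnajb4, a DnaJ partner of cytosolic HSP70, rose by 0.54 (SE 0.04, adjusted p = 2.39e-13) in 27 of 27 strains, while the better known HSP40 gene Dnajb1 fell by 0.31 (SE 0.05, adjusted p = 4.8e-07) in 26. Dnaja1, another cytosolic DnaJ protein, rose by 0.21 (adjusted p = 2.12e-07). The HSP90 gene Hsp90aa1 fell by 0.22 (adjusted p = 1.76e-07), and the small heat shock protein gene Hspb1 (adjusted p = 0.0227) had a level of 5.21 in cortex and 4.98 in accumbens, below log2 5, so it was lower by at least 0.21. The mitochondrial chaperonin pair, Hspe1 and Hspd1, rose by 0.49 and 0.15, but Hspd1 did not pass after quantile normalization (0.08, limma adjusted p = 0.0523).

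The 4 members that serve synaptic vesicles and clathrin coats were 3 lower and 0 higher, against 32.9% and 51% of all features. Auxilin, encoded by Dnajc6, recruits HSP70 to clathrin coats. Its level was between 9.83 and 10.47 in cortex (median 10.24) and between 8.71 and 9.46 in accumbens (median 9.00), with no overlap. The difference was -1.19 (SE 0.05, adjusted p = 1.42e-19), and all 3 Dnajc6 probe sets were lower. Dnajc5, which encodes cysteine string protein, fell by 0.18 (adjusted p = 5.81e-05), but 2 of its 5 probe sets were higher and 2 lower. Dnajc13, an endosomal protein that acts on clathrin, had a difference of -0.00 (SE 0.03, adjusted p = 0.915). Hspa8 had a difference of -0.09 (adjusted p = 0.0497). With every probe set tested, 2 of the 4 Hspa8 probe sets were higher, by 0.58 and 0.42, and 1 was lower. After quantile normalization all 4 members of this list were lower on the probe set used, Dnajc13 with a difference of -0.13 (adjusted p = 0.00111).

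Of 8 ER members, 4 were higher and 2 lower, against 51% and 32.9% of all features. Hspa13, an atypical HSP70 of microsomes, lay between 7.15 and 7.90 in cortex (median 7.55) and between 8.22 and 8.82 in accumbens (median 8.48). The regions did not overlap, and Hspa13 rose by 0.94 (SE 0.04, adjusted p = 3.1e-18). Dnajc1 and Dnajb9, DnaJ partners of the ER HSP70, rose by 0.52 and 0.42, the latter in 27 of 27 strains. Hspa5 (BiP), the ER HSP70 itself, rose by 0.20 (SE 0.03, adjusted p = 4.62e-06), and its other 2 probe sets by 0.45 and 0.22. Dnajc3, a co-chaperone and inhibitor of the kinase PERK, fell by 0.19 (adjusted p = 3.54e-05) and Dnajb11 by 0.10 (adjusted p = 0.0196). The ER HSP90 gene Hsp90b1 and the disulfide reductase gene Dnajc10 had differences of -0.02 and 0.03 and did not pass, but the dimmer probe set of each was higher, by 0.90 (adjusted p = 1.13e-13) and 0.41 (adjusted p = 1.7e-08) with every probe set tested.

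Mitochondrial members were 4 higher and 3 lower of 7, against 51% and 32.9% of all features. The mitochondrial HSP70 gene Hspa9 rose by 0.30 (adjusted p = 7.98e-07) and its DnaJ partner Dnaja3 by 0.23 (adjusted p = 1.9e-06). Dnajc15, an inner membrane protein related to the import motor, fell by 0.44 (SE 0.06, adjusted p = 1.81e-07), Dnajc11 by 0.21 (adjusted p = 3.06e-05) and Dnajc30 by 0.09 (adjusted p = 0.0256). Dnajc30 lost its call without P/J.

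The remaining large differences were in DnaJ proteins with specialised partners. Dnajc21, a co-factor of ribosome biogenesis, had the largest difference of all members. It lay between 7.10 and 8.39 in cortex (median 7.84) and between 5.41 and 7.52 in accumbens (median 5.83), the latter maximum being BALB/cByJ. Dnajc21 was lower in 27 of 27 strains, by 1.88 (SE 0.09, adjusted p = 1.13e-18), and 2 of its 3 probe sets were lower. Dnajb5 and Dnajb6, the latter an inhibitor of protein aggregation, fell by 0.69 (adjusted p = 2.34e-07) and 0.43 (adjusted p = 1.86e-16). Each was lower on all 3 of its probe sets, and the regions did not overlap for Dnajb6.

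In the opposite direction, Hspb11 rose by 0.97 (SE 0.06, adjusted p = 6.24e-16), Dnajc2, the ribosome-associated DnaJ protein, by 0.83 (adjusted p = 2.34e-14) and Dnajc9, which chaperones histones, by 0.80 (adjusted p = 6.05e-16), each in 27 of 27 strains. Dnajc12, a co-chaperone of aromatic amino acid hydroxylases, rose by 0.72 (adjusted p = 1.8e-08), and Dnajc17, a splicing co-factor, by 0.38 (adjusted p = 3.04e-08). Dnajc24, which takes part in diphthamide synthesis, rose by 0.71 (adjusted p = 1.83e-10), but its cortex mean of 4.39 is below log2 5, so it is given as at least 1.07-fold higher. With Dnajc6, Dnajb6, Hspa4 and Hspa13, Dnajc9 makes 5 members whose region values did not overlap, against 11.1% of all features. The sign was the same in all 27 strains for 9 members higher and 5 lower, against 18.7% and 11.9% of features.

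Of 33 members with at least 2 passing probe sets, 8 had probe sets called in opposite directions: Dnaja1, Dnaja2, Dnaja4, Dnajc3, Dnajc5, Hsp90aa1, Hspa4 and Hspa8. For Hspa8, the probe set used had a difference of -0.09 while 2 other bright ones had differences of 0.58 and 0.42. For Dnajc3 the probe set used had a difference of -0.19 and others had 0.09 and 0.36, while the fourth, with an accumbens mean of 4.11, was lower by at least 0.23. The directions of these 8 genes depend on the probe set, and the part of transcript ends and cross-hybridisation in this was not tested.

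Genes that work with the members were read from other lists, to be set against 51% of all features higher and 32.9% lower. The cytosolic chaperonin TRiC, a ring that folds actin and tubulin, had 6 of 8 subunits higher and 0 lower, led by Cct3 at 0.51 (SE 0.03, adjusted p = 2.92e-16) and Cct2 at 0.37. Among 10 other targets of heat shock factor 1 and co-chaperones of HSP90 or HSP70, 4 were higher and 4 lower. Cdc37, which brings kinases to HSP90, fell by 0.37 (adjusted p = 1.63e-11) and Fkbp4 by 0.31, while St13, an HSP70 co-factor, rose by 0.36 (adjusted p = 4.49e-14). Of 15 other genes of ER folding and the unfolded protein response, 4 were higher and 7 lower. Pdia4, a disulfide isomerase with an accumbens mean of 4.12, was at least 1.29-fold lower, and Atf4, a transcription factor of the stress response, fell by 0.59 (adjusted p = 1.33e-12). The cold-inducible gene Cirbp fell by 0.33 (adjusted p = 1.76e-05).

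The second comparison was between the 27 strains. Of the 53 members, 18 differed between strains in both regions together (moderated F test of limma, adjusted p under 0.05 over all features), against 20.4% of all features. In 12 members that passed, the strain means spanned at least 1 log2 unit, against 12.7% of features. By list, 7 of 11 heat-inducible members passed, 5 of 8 ER members, 2 of 7 mitochondrial members and 0 of 4 vesicle members. The median SD of strain means was 0.16 over the members and 0.18 over all features.

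Hspa1b had the widest spread of all tested members. The SD of its strain means was 1.06 and the means ran from 5.19 in 129S1/SvImJ through a median of 5.91 to 8.51 in NON/LtJ and 9.00 in WSB/EiJ (adjusted p = 6.45e-07). NON/LtJ and WSB/EiJ were the 2 highest strains in each region, at 8.84 and 9.11 in cortex and 8.17 and 8.88 in accumbens. In NON/LtJ the immediate early gene mean ranked 2 of 29 in cortex (9.49, median array 8.38), and the oligodendrocyte mean (11.03, median array 10.07) and the astrocyte mean (9.55, median array 8.73) were the highest of the 27 accumbens arrays. Their part in its Hspa1b and Dnajb1 levels was not tested. WSB/EiJ was also the highest strain on the other 2 Hspa1b probe sets, with means of 8.00 and 8.57. Without the 5 strains whose arrays stood apart in region markers, NON/LtJ and WSB/EiJ among them, the adjusted p was 3.94e-05.

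Dnajb1, the DnaJ partner that heat shock induces along with Hspa1b, followed with the same leading strains. Its strain means ran from 7.82 in A/J to 8.89 in NON/LtJ and 9.00 in WSB/EiJ, with a median of 8.22 (adjusted p = 0.000215). In cortex its highest array was NZO/HILtJ at 9.26, a strain with no accumbens array, ahead of WSB/EiJ at 9.08 and NON/LtJ at 9.03. The dimmer Dnajb1 probe set was highest in WSB/EiJ too, at 7.57, but did not pass (strain F test with every probe set tested, adjusted p = 0.163). Hspb1 ran from 4.05 in A/J to 6.16 in WSB/EiJ (adjusted p = 0.00167), with 12 accumbens and 19 cortex arrays above log2 5, and the NZO/HILtJ cortex array was again highest, at 6.67.

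**Figure D2:**
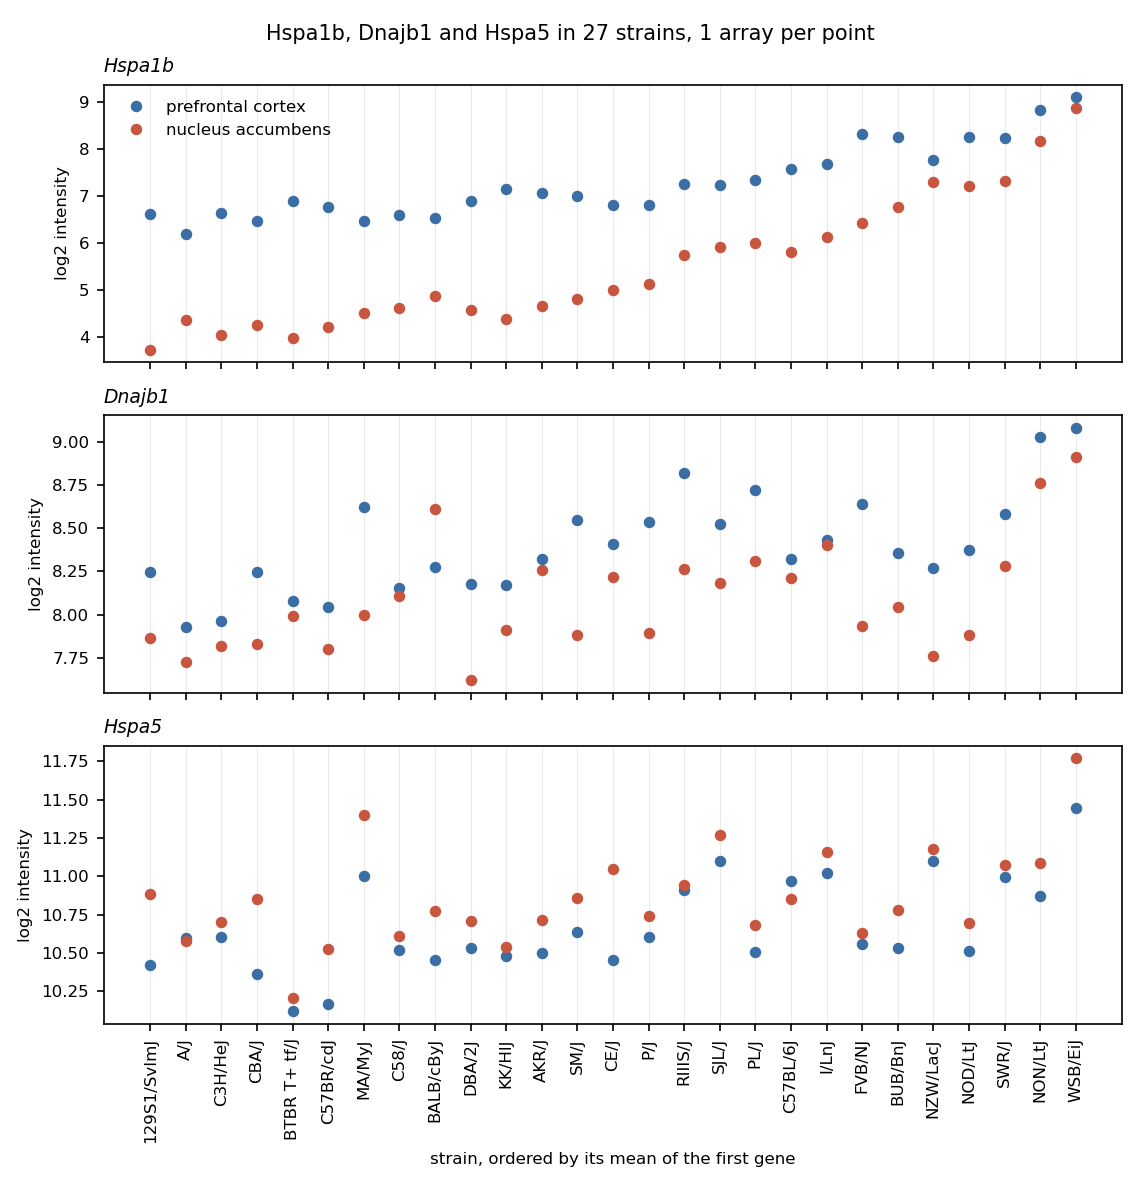
Levels of Hspa1b, Dnajb1 and Hspa5 (log2 intensity) in the 27 strains with both regions, 1 point per array, strains ordered by their Hspa1b mean. NON/LtJ and WSB/EiJ lie at the right with Hspa1b above 8 in both regions, and Hspa5 is highest in WSB/EiJ and lowest in BTBR T+ tf/J.

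WSB/EiJ was the highest strain for several ER members too. Hspa5 lay between 10.12 and 11.44 in cortex (median 10.60) and between 10.21 and 11.77 in accumbens (median 10.78). BTBR T+ tf/J was the lowest and WSB/EiJ the highest array in each region. Strain means ran from 10.17 to 11.61, with MA/MyJ second highest at 11.20 (adjusted p = 7.18e-08). Dnajc3 ran from 6.85 in CBA/J to 7.84 in WSB/EiJ (adjusted p = 0.000361), Hsp90b1 from 10.43 in KK/HlJ to 11.13 in WSB/EiJ (adjusted p = 0.00344) and Dnajb11 from 7.05 in PL/J to 7.77 in WSB/EiJ (adjusted p = 0.0494). NZW/LacJ was close behind WSB/EiJ for Hsp90b1, at 11.12, and for Dnajb11, at 7.74. Dnajb11 kept its call in 7 of 27 fits that left out 1 strain each. WSB/EiJ had the highest strain mean on every Hspa5 probe set. The dimmer Hsp90b1 probe set was highest in I/LnJ, at 9.59 (strain F test with every probe set tested, adjusted p = 0.041). A dimmer Dnajc3 probe set was highest in NZW/LacJ, at 6.33 (adjusted p = 0.0427). The remaining Dnajc3 probe sets were highest in WSB/EiJ but did not pass (adjusted p = 0.188 and 0.523).

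WSB/EiJ, a wild-derived strain, recurred as the highest strain, and the count was made after this was seen. It had the highest strain mean in 14 of 53 members, or 26.42%, against 3.87% of all 10684 features, and in 8 of the 11 heat-inducible members. In cortex alone its array was the highest of 29 in 9 of 53 members, against 3.19% of features, and in accumbens the highest of 27 in 13 of 53, against 2.79%. Of the 11 heat-inducible members, 4 had their highest array in WSB/EiJ in cortex and 7 in accumbens. All 11 were above the median of the other strains in both WSB/EiJ arrays. In cortex Hspd1 was above it by only 0.03 and Hspa4l by 0.05. The share of all features above that median was not counted. Of 8 ER members, 5 had their highest array in WSB/EiJ in cortex and 5 in accumbens, but not the same 5. Hspa13 ranked 1 in cortex and 3 in accumbens, and Dnajb9 ranked 6 and 1. BALB/cByJ also had the highest strain mean in 14 members, but it led 17.69% of all features.

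The excess of WSB/EiJ over the median of the other arrays was 2.07 in cortex for Hspa1b and at least 3.88 in accumbens, where that median of 4.94 was below log2 5. It was 0.74 and 0.92 for Dnajb1, 0.87 and 0.99 for Hspa5, and 0.03 and 0.29 for Hspd1. For the actin measure of RNA quality, WSB/EiJ ranked 21 of 29 arrays in cortex and 21 of 27 in accumbens. Its immediate early gene mean ranked 11 and 24, its spiny neuron mean 2 and 24 and its microglial mean 28 and 24. Its endothelial and mural mean was the lowest array of both regions, at 6.00 in cortex (median array 6.73) and 5.66 in accumbens (median array 6.18), and 4 of these 5 genes had their lowest strain mean in WSB/EiJ (Cldn5, Flt1, Tek and Pdgfrb). Its astrocyte mean was the lowest of 29 in cortex, at 8.76, and ranked 13 of 27 in accumbens. The part of these differences in the WSB/EiJ values was not tested. The lowest arrays in the members were less concentrated: A/J had the lowest strain mean in 7 of 53 members, or 13.21%, against 4.51% of features.

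**Figure D3:**
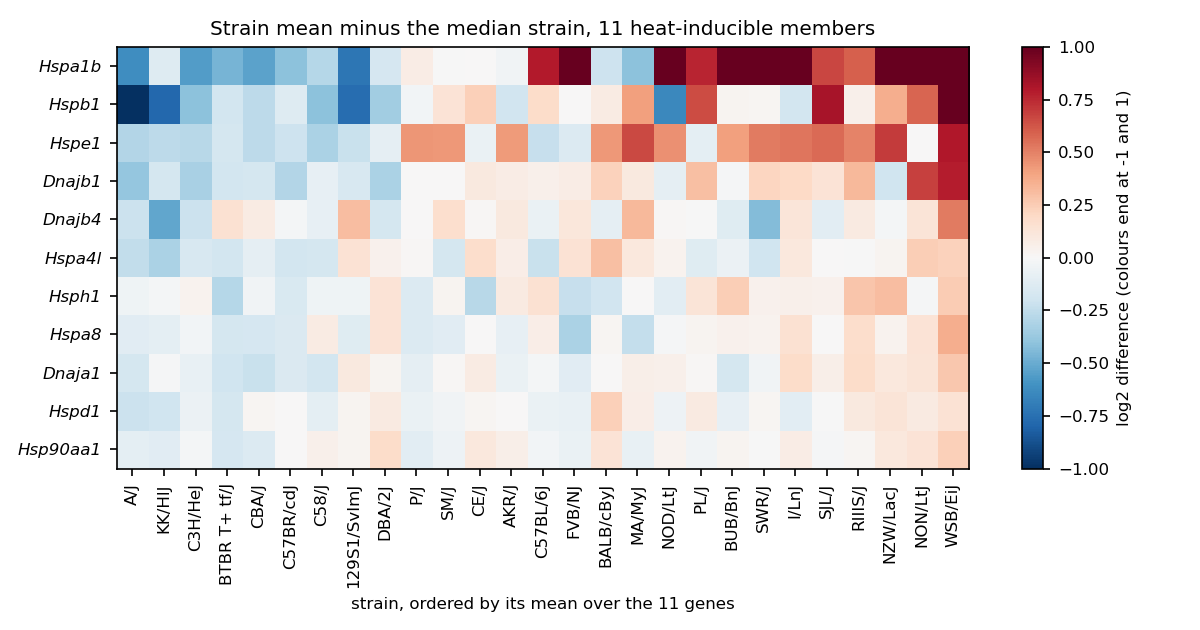
Strain mean minus the median strain for the 11 heat-inducible members (log2 difference, colours end at -1 and 1), strains ordered by their mean over the 11 genes. WSB/EiJ stands at the right end with all 11 genes above the median strain, and A/J at the left with Hspb1 lowest.

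Hspe1, the mitochondrial co-chaperonin, had the smallest strain p of the members on the probe sets used (adjusted p = 1.97e-09) and fell into 2 sets of strains. In cortex, 14 arrays lay between 8.56 and 8.96 and 15 between 9.26 and 9.85. In accumbens, 14 lay between 9.11 and 9.44 and 13 between 9.75 and 10.41. The 14 lower strains were the same in both regions: C57BL/6J, DBA/2J, A/J, NON/LtJ, FVB/NJ, C58/J, PL/J, CBA/J, 129S1/SvImJ, KK/HlJ, C3H/HeJ, CE/J, BTBR T+ tf/J and C57BR/cdJ. The sets were read from these values and are a description.

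Hspd1, the chaperonin that Hspe1 caps and its neighbour transcribed from the same stretch on the opposite strand, did not share the split. Hspd1 had a median of 9.55 in the lower and 9.64 in the higher set in cortex, and of 9.71 and 9.75 in accumbens, with overlapping ranges, and it did not pass the strain test (adjusted p = 0.45). The dimmer second Hspe1 probe set differed between strains too (adjusted p = 0.000137 with every probe set tested), but its largest gap put 12 strains below in cortex and 17 in accumbens. The brighter probe set is of a type that can detect related transcripts, and the part of sequence differences under its probes was not tested.

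**Figure D4:**
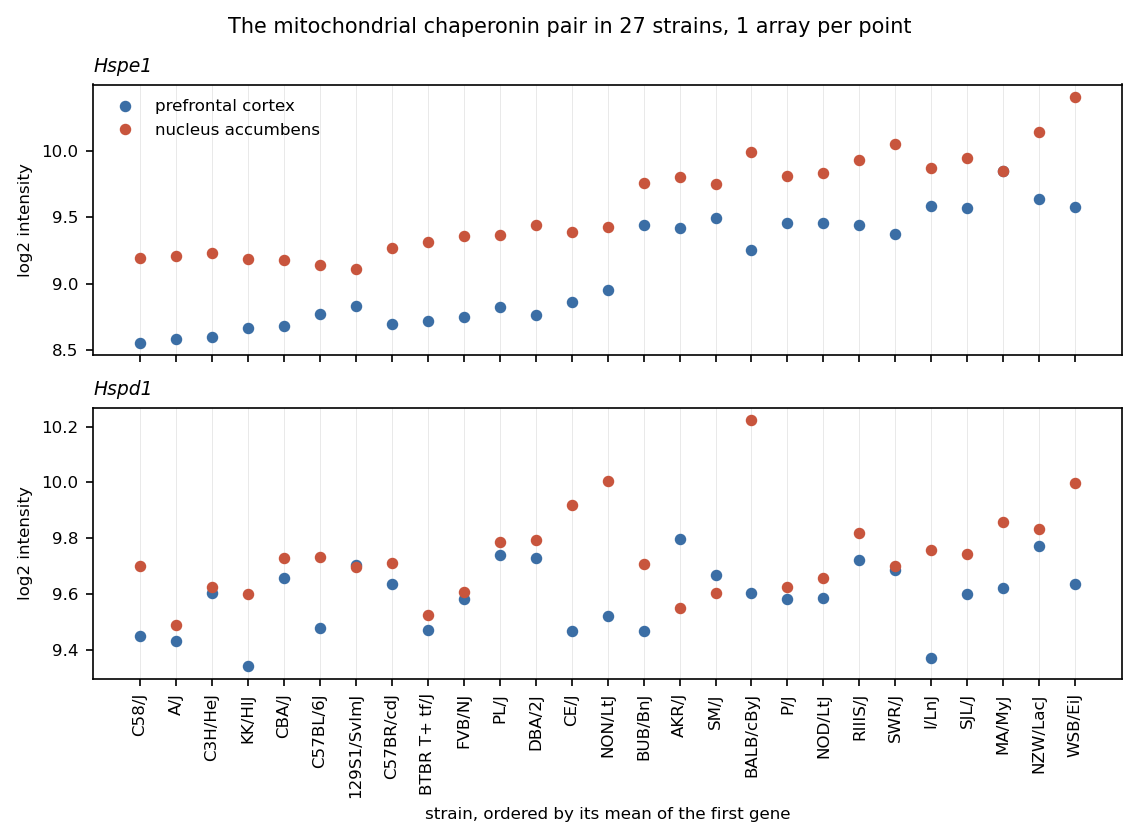
Levels of Hspe1 and Hspd1 (log2 intensity) in the 27 strains with both regions, 1 point per array, strains ordered by their Hspe1 mean. Hspe1 steps up between its 14 lower and 13 higher strains in both regions, and Hspd1 shows no step at that place.

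Several calls rested on 1 strain that stood apart. Dnajc15 was lowest in RIIIS/J, at 6.91 in cortex and 6.22 in accumbens, with the next arrays at 7.67 and 6.99 (adjusted p = 0.00456, or 0.266 without RIIIS/J). Dnajc10 was lowest in A/J, at 6.19 and 5.77, with the next at 6.51 and 6.77 (adjusted p = 0.024, or 0.631 without A/J), and A/J was the lowest strain on its second probe set as well. Dnajb2, a neuronal DnaJ protein, had a mean of 6.40 in AKR/J against a median of 7.33 (adjusted p = 0.00283, or 0.0739 without AKR/J). Dnajb6 and Hspa13 did not pass on the probe sets used, but dimmer probe sets of both did. For Dnajb6, 1 of these had a mean of 3.38 in NON/LtJ, with the next strain at 5.96 (strain F test with every probe set tested, adjusted p = 3.46e-12). For Hspa13, 1 had a mean of 8.84 in NON/LtJ against a median of 6.08 (adjusted p = 1.85e-09).

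Dnaja4, a cholesterol-regulated cytosolic DnaJ protein, was lowest in BTBR T+ tf/J, with a mean of 6.33 against a median of 7.30 (adjusted p = 0.00891, or 0.0582 without that strain). The dimmer Dnaja4 probe sets were both lowest in SWR/J and did not pass (strain F test with every probe set tested, adjusted p = 0.264 and 0.0719). Hspb11 was highest in MA/MyJ at 7.92 (adjusted p = 0.00738, or 0.0556 without it), the strain whose cortex array stood nearest to accumbens. Dnajc27 ran from 7.43 in NZW/LacJ to 9.06 in BALB/cByJ (adjusted p = 0.018) and lost its call without NZW/LacJ or SM/J. The dimmer Dnajc27 probe set ran from 5.90 in NON/LtJ to 6.73 in I/LnJ (strain F test with every probe set tested, adjusted p = 0.0462). Dnaja1 (adjusted p = 0.0322) kept its call in 21 and Dnajc16 (adjusted p = 0.0486) in 9 of 27 such fits.

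The last 2 members that passed were Dnajb4, from 7.67 in KK/HlJ to 8.70 in WSB/EiJ (adjusted p = 0.00156), and Hsph1, from 10.47 in BTBR T+ tf/J to 11.05 in NZW/LacJ (adjusted p = 0.00425). Among the members that did not pass were Hspa8 (adjusted p = 0.185), Hsp90aa1 (adjusted p = 0.271) and Dnajc21 (adjusted p = 0.124). The dimmest Hspa8 probe set did pass (strain F test with every probe set tested, adjusted p = 0.00688). It ran from 4.78 in BTBR T+ tf/J, below log2 5, to 6.46 in WSB/EiJ. None of the 8 TRiC subunits passed, while 8 of 15 other ER genes did, against 20.4% of all features. Xbp1, which encodes a transcription factor of the unfolded protein response, was highest in WSB/EiJ at 10.08 (adjusted p = 0.00114), as were Manf and Pdia6. The others that passed were highest elsewhere: Calr and Syvn1 in SJL/J, Creld2 in MA/MyJ, Hyou1 in CE/J and Sel1l in BALB/cByJ.

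The third comparison asked which features followed a member across strains within a region. Hspa5, Hsph1 and Hspa1b were each correlated with the 10683 other features in 29 cortex and 27 accumbens arrays, which made 6 families (two-sided permutation test with 100000 draws, Benjamini-Hochberg adjustment within a family). The feature most like Hspa5 in each region was Chordc1, an HSP90 co-chaperone, and not a member. In cortex r was 0.89 and rho 0.82 (p = 1e-05, the smallest the draws can give, adjusted p = 0.0089), and in accumbens r was 0.89 and rho 0.82 (p = 1e-05, adjusted p = 0.00822). Without the 2 arrays farthest from the Hspa5 median, NZO/HILtJ and WSB/EiJ in cortex and MA/MyJ and WSB/EiJ in accumbens, r was 0.85 and 0.86. Chordc1 itself ran from 7.48 in BTBR T+ tf/J to 8.68 in WSB/EiJ (limma adjusted p = 3.09e-05).

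**Figure D5:**
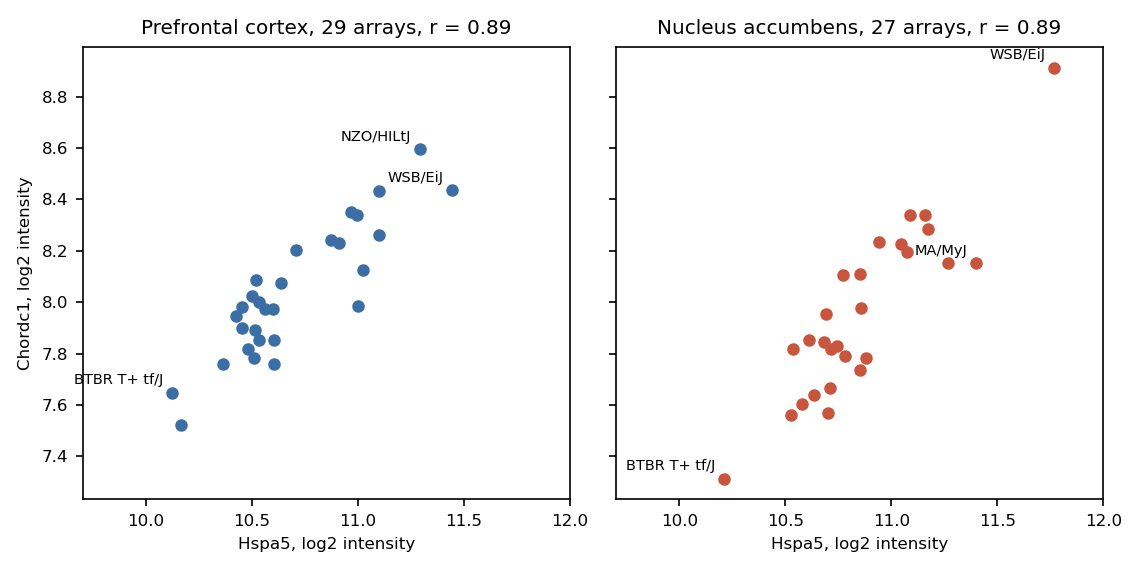
Chordc1 against Hspa5 (log2 intensity) across strains in cortex (29 arrays) and accumbens (27 arrays), 1 point per array. BTBR T+ tf/J has the lowest Hspa5 and WSB/EiJ the highest in each region, and r is 0.89 in both.

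The next named features in cortex were Pdia6, Creld2 and Calr, which serve protein folding in the ER, with r of 0.80, 0.80 and 0.79 (permutation test, adjusted p = 0.0089 each), beside 1 probe set with no gene name. In accumbens they were Xbp1 at 0.85, Ccar1 at 0.84, Slc5a3 at 0.83 and Fndc3a at 0.76 (adjusted p = 0.00822 each). Among the 52 other members, 5 had a positive call with Hspa5 in cortex, where 0.365% of features did: Hsp90b1 (r = 0.67), Dnajb1 (0.66), Hsph1 (0.66), Hspe1 (0.64) and Dnajb11 (0.64). In accumbens 6 had a positive call, against 1.01% of features: Hspb1 (0.75), Dnajc3 (0.72), Dnaja1 (0.71), Hsp90b1 (0.70), Hspe1 (0.65) and Hspa4 (0.64). Dnajc30 was negative there (r = -0.63, against 1.1% of features). Without the 2 farthest arrays, none of the 5 passed in cortex, where r was between 0.48 for Dnajb1 and 0.60 for Hspe1. In accumbens Hspb1 (0.66), Dnaja1 (0.68) and Hsp90b1 (0.66) still passed, and the others were between 0.50 for Dnajc3 and 0.61 for Hspa4, with -0.58 for Dnajc30.

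For Hsph1 in cortex, 0 features passed in either direction, although 815 features and 15 of 52 members had an unadjusted permutation p under 0.05. The features with the highest r were Hnrnpc (0.72), Mettl3 (0.72), Slc5a3 (0.70), Togaram1 (0.69) and Get1 (0.68). In accumbens 2 members were positive and 5 negative, against 5.39% and 6.18% of features, led by Dnajc1 (r = 0.65) and Hspa12a (r = -0.68). The feature with the highest r was Zbtb20 (0.83), followed by 4 probe sets with no gene name. None of these members passed without CE/J and BALB/cByJ, arrays that stood apart in region markers, and Dnajc1 then had an r of 0.50 and Hspa12a of -0.60. For Hspa1b, 0 features passed in cortex, where 814 had an unadjusted p under 0.05, and 0 in accumbens, where 1308 did. Among the features with the highest r to Hspa1b was Dnajb1 in cortex (r = 0.69, permutation adjusted p = 0.214, r = 0.55 without NON/LtJ and WSB/EiJ).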

How the data were processed

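RNA of 3 pooled male mice per strain and region was hybridised to 56 Affymetrix arrays, 29 of prefrontal cortex and 27 of nucleus accumbens. The authors deposited probe set intensities on a linear scale, made with GCRMA per the submitters' processing notes, version not stated there. The number of arrays limits the precision. Here log2 of the intensity was taken with no pseudocount. Of 45015 probe sets, 34880 were annotated to 1 symbol, 923 to several and 9148 to none, and 64 were controls. The brightest probe set of each gene was kept, and the 10684 features that exceeded log2 5 on 13 or more of the 54 arrays of paired strains were tested.

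Regions and strains were compared in 1 fit with limma 3.58.1 in R 4.3.3 (region moderated t, strain moderated F, Benjamini-Hochberg adjustment, threshold 0.05). A strain's arrays were paired by strain, since the design describes both regions dissected from each brain. Whether a strain's 2 pools held the same 3 mice is not stated. Correlations used 100000 permutations. The fit was tested on simulated data and called 58% of region differences of 0.25 and 92% of those of 0.5. Promoters are those of RefSeq on GRCm38.p6.

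The members, lists and tests were chosen with earlier results of these data known. Genes named are the heat-inducible, ER, mitochondrial and vesicle members, the 12 largest region differences in each direction, the 12 largest strain SDs among called members, up to 4 genes by region difference of each other list and the 5 features with the highest r to Hsph1 and to Hspa5 in each region. Dnaja2, Dnajc16, Hspa12a, Hspa14 and the features correlated with Hspa1b were named after their values were seen. Alternatives were other filters, scalings, probe set choices, variance models and thresholds, unpaired arrays, and strains left out.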

Additional observations from a re-analysis of the deposited data

How the results depend on the processing

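The counts of members were recomputed under each alternative. With no replicate block, that is with arrays taken as unpaired, 22 members were higher and 16 lower. With no filter on dim probe sets 30 were lower, among more members tested. Leaving out 1 strain at a time gave 24 to 26 members higher, 18 to 20 lower and 14 to 19 differing between strains. Over the 42 named members, 336 values kept direction and side of the threshold, 18 were no longer past it, 5 were newly past it and 5 reversed. The reversed values were -0.07 for Dnaja1 and 0.94 for Dnajc27 without probe sets prone to cross-hybridisation, which reads another probe set of each, and -0.09, -0.07 and -0.05 for Dnajc10 under quantile normalization, centring and without the 5 strains whose arrays stood apart. Dnajc10 was not called by region. The correlation counts moved most. Without the 5 strains, Hsph1 in accumbens had 0 positive and 1 negative member, Hspa5 in cortex 0 positive, and Hspa5 in accumbens 2 positive and 0 negative. Without the 2 farthest arrays the counts were 0, 0, 0, 3 and 0 in that order. Under quantile normalization Hsph1 in accumbens had 8 negative members. The cause of these shifts was not tested. Probe sets near log2 5, such as Hspb1 and Dnajc24, have limited precision.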

Other observations

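Dnajc19, a mitochondrial import protein, had no probe set of its own. The 3 probe sets that carry its symbol carry a second one too. Their mean levels were 7.40 ± 0.18 in cortex and 7.58 ± 0.16 in accumbens, 2.93 and 2.89, and 4.40 and 4.84 (SD, n = 27).

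The strains measured in cortex only were set beside the 27 others after the values were seen. NZO/HILtJ lay above all 27 for 3 of 53 members, against 2.54% of all features: Dnajb1 at 9.26, Hspb1 at 6.67 and Hspa2 at 6.64. MRL/MpJ lay below all 27 for 3 members, against 3.02% of all features: Dnajc4 at 5.33, Hspa12a at 8.03 and Hspbp1 at 7.37. Neither has an accumbens array, so these places have no second region to set them against.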
